A study of Capra hircus with 3 samples.

Results

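The genes of FGF, EGF, HGF, Wnt and hedgehog signalling were followed in the skin of Arbas Cashmere goats kept under a short or a natural photoperiod. They were chosen by name: every probe of the array that is not a control and whose gene name or description names an FGF, a Wnt, EGF, EGFR, TGFA, HGF, SHH, a frizzled protein, dickkopf, beta-catenin, hedgehog or patched. The rule found 19 genes among the 14314 gene names of the array. They were measured by 32 of its 15008 probes, on 36 spots. FGF signalling had 19 probes and 10 genes, EGF 1 probe and 1 gene, HGF 1 probe and 1 gene, Wnt 7 probes and 5 genes, and hedgehog 4 probes and 2 genes. The names EGF, TGFA, dickkopf and beta-catenin found no probe, and these genes were not analysed here. The study used 6 female goats, all 2 years old. The short photoperiod group was 3 goats let out between 9:30 and 16:30 and otherwise kept in a shed darkened to about 0.1 lux. The natural photoperiod group was 3 goats at pasture without this treatment. Total RNA of skin cut from one side of the body was hybridised to 3 Agilent sheep arrays, each with a short photoperiod goat in Cy5 and a natural photoperiod goat in Cy3. According to the paper, goats of the same parent were compared across the groups. Skin is a mixture of cells, so fewer cells of a type and less RNA per cell cannot be told apart in any of the values.

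In the hair follicle these pathways carry signals between the dermal papilla, a cluster of mesenchymal cells at the follicle base, and the epithelium around it. FGF7, FGF10 and HGF are secreted by the mesenchyme and act on receptors of the epithelium, FGFR2 IIIb and MET, whereas FGF18 is known in mice for holding the follicle at rest. Wnt proteins bind frizzled receptors and are needed for follicle formation and regrowth, and secreted frizzled-related proteins bind Wnt outside the cell. Sonic hedgehog, made by the follicle epithelium, binds patched and thereby frees smoothened to signal, and the patched gene is itself a target of the pathway.

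The measurements are those of probes of 60 bases, and several genes are represented by a pair of nearly identical ones. The SHH, PTCH1, FZD2 and FGFR2 IIIb pairs are shown because their members share 59 bases, and the single FGF18 and HGF probes because they carry the highest and one of the lowest mean ratios. Capitals mark the base that the other probe of the gene does not hold. The array gives no genome position for them, and each matches a sheep mRNA record described as partial coding sequence.
SHH, the first probe: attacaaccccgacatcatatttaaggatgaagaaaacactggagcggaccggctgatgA
SHH, the second probe: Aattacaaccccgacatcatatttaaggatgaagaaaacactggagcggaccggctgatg
PTCH1, the first probe: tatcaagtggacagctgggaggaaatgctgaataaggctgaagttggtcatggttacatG
PTCH1, the second probe: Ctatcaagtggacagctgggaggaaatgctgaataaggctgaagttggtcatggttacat
FZD2, the first probe: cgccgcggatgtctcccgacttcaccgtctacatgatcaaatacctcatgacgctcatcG
FZD2, the second probe: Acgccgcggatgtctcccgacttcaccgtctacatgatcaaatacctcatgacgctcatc
FGFR2 IIIb, the first probe: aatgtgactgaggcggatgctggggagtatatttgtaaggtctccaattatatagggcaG
FGFR2 IIIb, the second probe: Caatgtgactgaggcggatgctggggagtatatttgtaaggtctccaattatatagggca
FGF18: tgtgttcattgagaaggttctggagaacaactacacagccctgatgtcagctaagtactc
HGF: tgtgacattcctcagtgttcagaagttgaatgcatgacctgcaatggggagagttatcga
Paired probes of this kind are repeated readings of one site and not independent measurements. In the 8 pairs that share 59 bases, the log2 ratios of the 2 probes differed by at most 0.12 on any array, which shows how closely a site was read within an array.

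Values are log2 ratios of short over natural photoperiod after loess normalization within each array, so a ratio above 0 is a higher signal under the short photoperiod. Ratios are given for replicates 1, 2 and 3 in that order, with the mean ± SD over the 3 arrays, and probes of 1 gene were averaged. In both dyes and on each of the 3 arrays, all 32 probes exceeded the background well. Median spot intensities of the arrays were 4587, 6436 and 7120 in Cy5 and 2688, 3668 and 3911 in Cy3. The dyes were not swapped on any array, so a dye bias of a probe and an effect of photoperiod cannot be told apart. Goat RNA was read with sheep probes, and the effect of base differences between the species was not tested. The number of arrays limits the precision, since 3 arrays give a two-sided sign test no p below 0.25.

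After loess, no member changed past the thresholds used. The count with an adjusted p under 0.05 in limma was 0 of 32, against 0.00668% of the 14977 tested probes, and 11 of 32 had an unadjusted p under 0.05, against 18.5%. The 11 were 8 higher (9.05% of all tested probes) and 3 lower (9.41%), and pairs that share a sequence are counted as 2. Among the 32 probes 0 were at least 2-fold higher and 0 at least 2-fold lower in the mean, where each background was 0.427%. Mean ratios ran from −0.65 to 0.69 and adjusted p from 0.157 to 0.922. A ratio above 0 on every array was found for 11 probes (background 21.5%) and a ratio below 0 on every array for 5 (22.1%), so 16 of 32 kept one direction (43.6%). The median mean ratio was 0.17 over the members and −0.0072 over all tested probes. With the arrays centred on their median instead of loess, 5 of 32 had an adjusted p under 0.05 in limma, against 12.6%. They were FGF18, FGFBP1-like, HGF and both FZD2 probes.

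**Figure D1:**
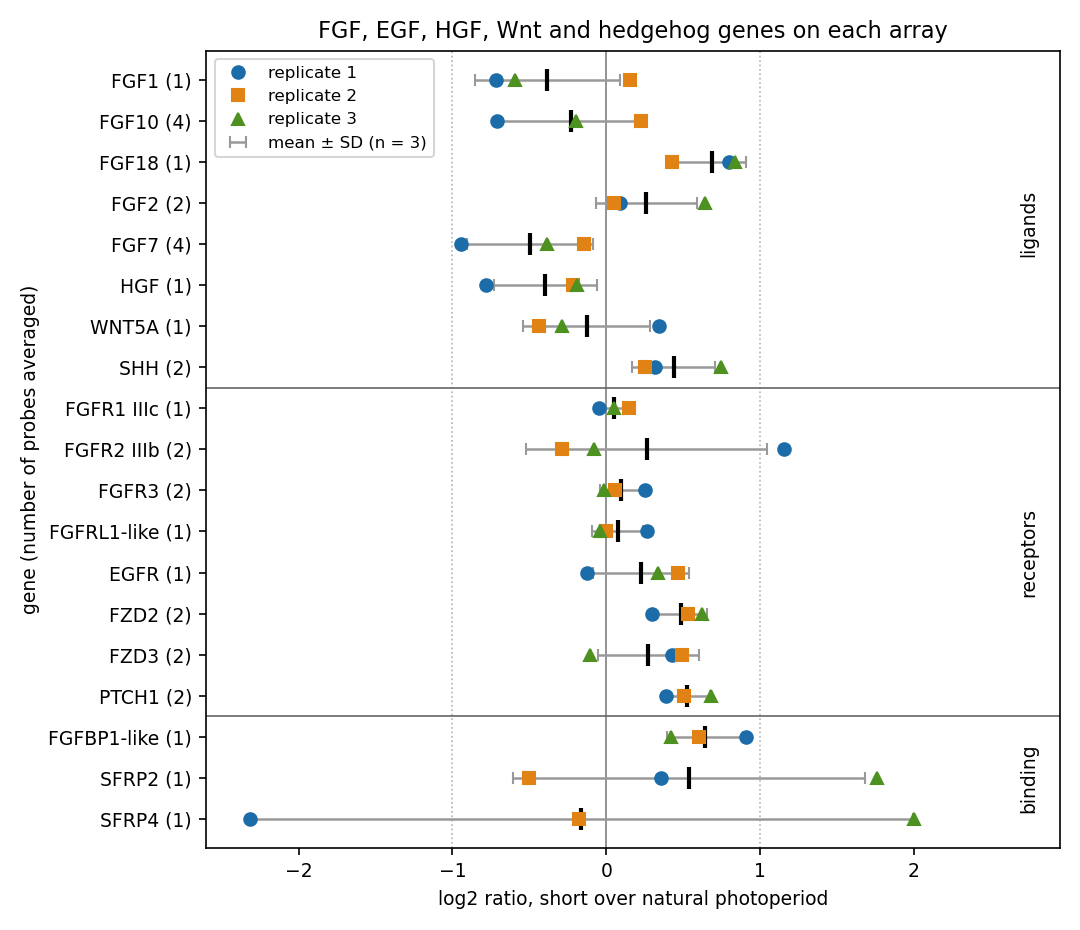
Log2 ratio of short over natural photoperiod (horizontal axis) of the 19 genes on each array, with the number of probes averaged in brackets; coloured symbols are the 3 arrays, the black tick is the mean and the grey bar the SD over arrays, and dotted lines mark a 2-fold difference. FGF18, FGF2, FGFBP1-like, FZD2, SHH and PTCH1 lie to the right of 0 on every array, FGF7 and HGF to the left, and SFRP4 spans −2.32 to 2.001.

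Among the 5 FGF ligands, FGF18 and FGF2 stood above 0 and FGF7 below 0 on every array. FGF18 had ratios of 0.80, 0.43 and 0.84, a mean of 0.69 ± 0.23 or 1.61-fold, and an adjusted p of 0.157 in limma. Its normalized log2 signal was 10.69, 11.01 and 11.09 in the short photoperiod goats and 9.90, 10.58 and 10.25 in the natural ones, so the lowest goat of the first group was above the highest of the second. Signals separated in this way, short above natural, in 7 of the 32 probes, against 6.36% of all probes. The 7 included both FZD2 probes, which share 59 bases. They also included an FGFR3 probe at low signal, whose lowest short photoperiod signal was 7.442 and highest natural signal 7.435.

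FGF7, also called keratinocyte growth factor, had ratios of −0.94, −0.15 and −0.39 over 4 probes, with a mean of −0.49 ± 0.41 or 0.71-fold. Replicate 1 carried the largest difference, and without it the means of the 4 probes lay between −0.39 and −0.081. A pair of probes lies in the FGF7 mRNA and another pair in a sheep abomasum transcript that the array names FGF7. Their means were −0.28 and −0.46 in the mRNA and −0.65 and −0.59 in the transcript, with adjusted p between 0.220 and 0.399. In the transcript's first probe the short photoperiod goats had signals of 14.02, 13.92 and 13.91 and the natural ones 15.19, 14.16 and 14.44. The groups did not overlap there, as in 4 of the 32 probes with short below natural (background 7.2%). The transcript's other probe, nearly identical in sequence, is also among the 4. The size of the FGF7 difference depended on the normalization: with the arrays centred on their median instead of loess the 4 means were −0.044, −0.081, −0.37 and −0.31.

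FGF10, which signals through the same receptor as FGF7, did not run the same way on all arrays, with ratios of −0.71, 0.23 and −0.20 and a mean of −0.23 ± 0.47. Without replicate 1 the means of 3 of its 4 probes were slightly above 0, at 0.073, 0.022 and 0.028. FGF1, the acidic FGF, was similar, at −0.72, 0.16 and −0.59 with a mean of −0.38 ± 0.47 that was −0.22 without replicate 1 and −0.65 without replicate 2. FGF2, the basic FGF, was at 0.089, 0.052 and 0.64, a mean of 0.26 ± 0.33, and without replicate 3 the means of its probes were 0.086 and 0.055. Adjusted p in limma was 0.364 for FGF1, at least 0.446 for FGF10 and at least 0.391 for FGF2.

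The FGF receptors had gene means between 0.051 and 0.26 for 4 genes, and all but FGFR2 IIIb lay within 0.27 of 0 on each array. FGFR1 in its IIIc form was at −0.046, 0.15 and 0.052, a mean of 0.051 ± 0.096. FGFR3 was at 0.25, 0.059 and −0.017 with a mean of 0.099 ± 0.14. The SDs of these genes were below the median SD of all tested probes, 0.20. The lowest spot intensities of any member, 165 in Cy5 and 90 in Cy3, were those of FGFR3. Whether low signal narrowed its SD was not tested. Under median centring FGFR1 had a mean of −0.13 and the FGFR3 probes −0.30 and −0.20, so the sign of these small ratios was set by the normalization. A contig covering 5% of the protein of FGFRL1, a receptor without a kinase domain, was at 0.27, −0.003 and −0.041.

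FGFR2 IIIb, the epithelial receptor of FGF7 and FGF10, differed between pairs of goats. Its ratios were 1.16, −0.29 and −0.08, with a mean of 0.26 ± 0.78 and adjusted p of 0.622 and 0.710. The first probe gave signals of 11.75, 10.88 and 10.33 under the short photoperiod and 10.60, 11.14 and 10.35 under the natural one, so the groups overlapped and replicate 1 alone was over 2-fold. Without replicate 1 the means of the 2 probes were −0.14 and −0.23. All 3 keratinocyte genes with a value on every array were also highest on replicate 1, with ratios of 1.24, 0.62 and 0.095 for KRT14, 1.33, 1.18 and 0.33 for TP63, and 0.53, −0.27 and −0.28 for DSP. KRT5 had a value on replicate 1 only and was left out. DSP was below 0 on replicates 2 and 3, where KRT14 and TP63 were above 0. Their part in the FGFR2 result was not tested.

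The contig named after FGF-binding protein 1, a secreted carrier that releases FGFs from the matrix, had ratios of 0.91, 0.60 and 0.42. They averaged 0.64 ± 0.25 or 1.56-fold, and the adjusted p was 0.164. Signals of 12.52, 12.97 and 12.67 in the short photoperiod goats lay above 11.61, 12.37 and 12.25 in the natural ones. The name is uncertain, because the contig that the description matches to 6% of the mouse protein is a different one from that of the gene name, and the array lists both for this probe.

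Outside the FGF family, the growth factor HGF was lower and EGFR did not run one way. HGF was at −0.78, −0.22 and −0.19, a mean of −0.40 ± 0.33 or 0.76-fold with an adjusted p of 0.274, and without replicate 1 its mean was −0.20. The short photoperiod signals of 8.13, 8.48 and 8.67 were all below the natural ones of 8.91, 8.70 and 8.86, with 8.67 and 8.70 almost touching. Its receptor MET, measured as one of the other pathway genes, was at 0.79, 0.15 and −0.14 and so took both signs. EGFR, the receptor of EGF and related ligands, was at −0.13, 0.47 and 0.34, a mean of 0.23 ± 0.31 with an adjusted p of 0.454, and the mean was 0.40 without replicate 1 and 0.11 without replicate 2.

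Of the Wnt genes, the receptor FZD2 was higher on every array. Its ratios were 0.30, 0.53 and 0.62, with a mean of 0.49 ± 0.17 or 1.40-fold and adjusted p of 0.164 and 0.189 for its 2 probes. The second probe gave 13.72, 13.51 and 13.87 in the short photoperiod goats and 13.37, 12.93 and 13.22 in the natural ones. Neither probe overlapped between the groups, but in the first the lowest short photoperiod signal, 13.77, and the highest natural one, 13.75, almost touched. FZD3 was above 0 on replicates 1 and 2 and below 0 on replicate 3, at 0.43, 0.50 and −0.11 with a mean of 0.27 ± 0.33. The means of its 2 probes were 0.16 and 0.17 without replicate 2 and 0.45 and 0.47 without replicate 3. The ligand WNT5A, which acts mostly without beta-catenin, was at 0.34, −0.43 and −0.29, a mean of −0.13 ± 0.41 whose sign turned without replicate 2 (0.027) and under median centring (0.061).

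The secreted Wnt-binding proteins gave the widest spread among the members. SFRP4 had ratios of −2.32, −0.18 and 2.001, so it was lower in the short photoperiod goat of replicate 1 and higher in that of replicate 3, each by 4-fold or more. Its signals were 10.17, 11.26 and 12.02 under the short photoperiod and 12.49, 11.44 and 10.02 under the natural one. The limma fit gave −0.17 ± 2.16 and an adjusted p of 0.922, and the mean lay near the ratio of replicate 2 and far from both others. Unnormalized spot intensities showed the same crossing, with 1154, 3471 and 6444 in Cy5 and 3480, 2302 and 905 in Cy3. SFRP2 was at 0.36, −0.50 and 1.76, with a mean of 0.54 ± 1.14 and an adjusted p of 0.538, and its mean without replicate 3 was −0.073.

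By SD over the arrays, SFRP4 ranked 29 and SFRP2 194 among all tested probes, counted from the highest. The median SD of the members was 0.33, and that of all tested probes 0.20. The spread was uneven over the arrays: the SD across the 32 members was 0.76, 0.31 and 0.61 on replicates 1, 2 and 3, and across all probes 0.40, 0.37 and 0.49. Probes at least 2-fold from 0 on a single array numbered 5 of 32 on replicate 1 (background 2.46%), 0 on replicate 2 (2.01%) and 2 on replicate 3 (5.19%). Those of replicate 1 were SFRP4 and the twin probes of FGFR2 IIIb and of FGF7, and those of replicate 3 were SFRP2 and SFRP4.

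**Figure D2:**
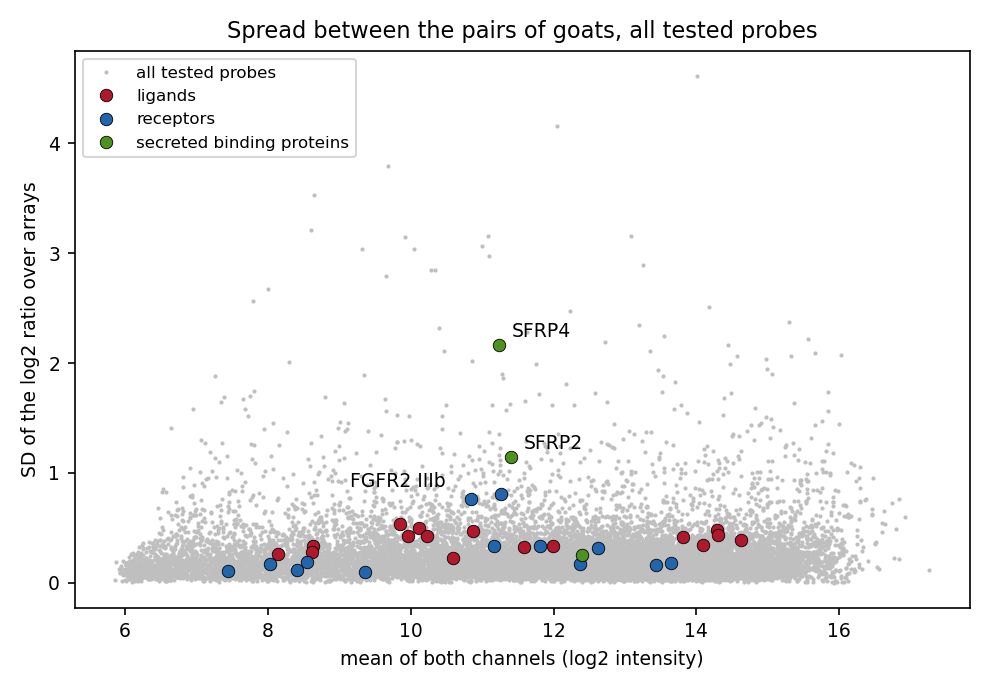
SD of the log2 ratio over arrays (vertical axis) against the mean log2 intensity of both channels (horizontal axis) for all tested probes in grey and the members in colour by role. SFRP4 and SFRP2 have the highest SDs of the members, 2.16 and 1.14, followed by FGFR2 IIIb, and lie among the upper probes of the array.

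In hedgehog signalling, the ligand and its receptor both had ratios above 0 on each array. SHH had ratios of 0.32, 0.25 and 0.75, a mean of 0.44 ± 0.27 or 1.36-fold, with adjusted p of 0.211 and 0.227. PTCH1 was at 0.39, 0.51 and 0.68, a mean of 0.53 ± 0.15 or 1.44-fold, with adjusted p of 0.163 and 0.168. Both genes were highest on replicate 3.

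The second SHH probe read 8.13, 8.14 and 8.81 in the short photoperiod goats and 7.79, 7.88 and 8.06 in the natural ones. The first PTCH1 probe read 8.68, 8.60 and 8.76 and 8.27, 8.04 and 8.13. Neither of these overlapped between groups, but the twin of each, which shares 59 bases, did. For SHH the twin's lowest short photoperiod signal was 8.41 and its highest natural signal 8.74, and for PTCH1 these were 8.67 and 8.68. Median centring brought the means down to 0.20 and 0.16 for the SHH probes and to 0.28 and 0.27 for the PTCH1 probes, and without replicate 3 the SHH means were 0.27 and 0.30.

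**Figure D3:**
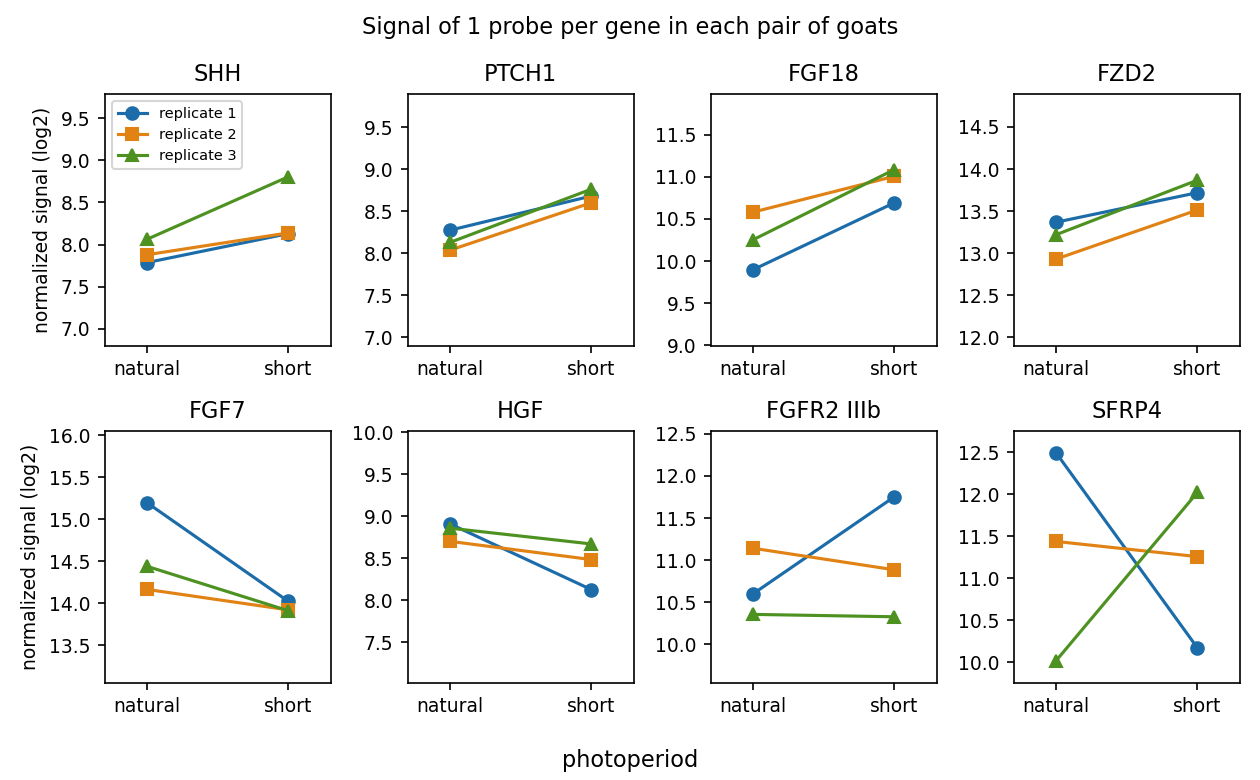
Normalized log2 signal of 1 probe for each of 8 genes (vertical axis, each panel spanning 3 log2 units) in the natural and the short photoperiod goat of each pair, joined by a line. All 3 lines run upward for SHH, PTCH1, FGF18 and FZD2 and downward for FGF7 and HGF, whereas those of FGFR2 IIIb and SFRP4 cross.

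Set side by side, the receptors were more often above 0 in the mean than the ligands. All 8 receptor genes had a mean above 0 with a median of 0.25, except that FGFR1 and FGFR3 were below 0 under median centring and FGFR2 IIIb and FGFRL1-like without replicate 1. Of the 8 ligand genes 3 had a mean above 0, and their median was −0.18. These were FGF18, FGF2 and SHH. Only genes found by the name rule are counted here. Outside it, the receptors ERBB2 and MET had means of 0.11 and 0.27 and the transducer SMO −0.033. The ligands AREG and NRG1 had means of 0.28 and −0.60. Over all tested probes the median mean ratio was −0.0072, so means above 0 were not the more common ones there. By array the receptor medians were 0.28, 0.31 and 0.018 and the ligand medians −0.31, 0.10 and −0.19, so the receptor median was the higher one on each array. The SD of the array medians was 0.16 for receptors and 0.21 for ligands. The receptor median was 0.15 without replicate 1 and 0.14 without replicate 2, and the ligand median was −0.094 without replicate 1 and −0.071 under median centring. Many receptor ratios were near 0 and 4 of the 8 genes were FGF receptors, whose median of 0.086 was −0.020 under median centring and about 0 without replicate 1. The difference was not tested, because genes are not replicates. Within pathways, FGF ligands had a median of −0.23, which became 0.014 without replicate 1 and −0.45 without replicate 2, and the Wnt receptors FZD2 and FZD3 a median of 0.38 beside −0.13 for WNT5A. For hedgehog the ligand and receptor were at 0.44 and 0.53.

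Other genes of the pathways, from lists that do not overlap with the members, had list medians near 0 with members on both sides, and 0 of their probes had an adjusted p under 0.05. Of the FGF, EGF and HGF list, 11 genes were measured, with a median of 0.067, 3 higher and 2 lower on all arrays. That median was 0.036 without replicate 1, 0.11 without replicate 3 and 0.14 under median centring. NRG1, a ligand of the EGF receptor family, was lower at −0.28, −0.50 and −1.02 with a mean of −0.60 ± 0.38. The feedback inhibitor SPRY1 was at −0.22, −0.029 and −0.66. FOS, an immediate early transcription factor, had the mean furthest from 0 in this list but not one direction, at −0.84, 0.028 and −1.19 over 4 probes with a mean of −0.67 ± 0.63, and is named after its values were seen. AREG, a ligand of EGFR, was at 0.13, 0.13 and 0.58, and the transcription factor JUN at 0.50, 0.075 and 0.032. ERBB2, a receptor that pairs with EGFR, was close to 0 with a mean of 0.11 ± 0.11.

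Among 5 further Wnt genes the median was 0.037, and the 2 whose probe average ran one way on all arrays were both slightly lower. TCF7L2, a nuclear partner of beta-catenin, had a mean of −0.19 ± 0.092 from ratios of −0.22, −0.084 and −0.26. RHOA, a small GTPase of the branch without beta-catenin, had −0.17 ± 0.054 from −0.15, −0.23 and −0.12 as the average of 3 probes. These differed: the probe that the array names RHOA took both signs, at 0.070, −0.21 and 0.077 with a mean of −0.020. The contig probes were below 0 on every array, with means of −0.29 and −0.19. The median of this list was 0.27 under median centring and ran from −0.0048 to 0.072 without 1 array. Among 4 further hedgehog genes the median was −0.0059, and SMO, the transducer that patched holds back, was at 0.0050, 0.037 and −0.14. PRKACA, the catalytic subunit of protein kinase A, which acts on GLI proteins, was the gene of this list above 0 on all arrays, at 0.65, 0.34 and 0.65 with a mean of 0.55 ± 0.18 and an adjusted p of at least 0.164.

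Markers of skin cell types were measured on the same arrays, and KRT14 of the epidermis, KRT27 of the hair follicle and COL1A1 of the dermis were all well above background in their brighter channel on every array. None of the markers had an adjusted p under 0.05 in limma. The 5 hair cortex and inner root sheath genes, among them KRT27, KRT34 and KRT85, were higher on all arrays, with medians of 0.52, 0.50 and 1.94 by array. The 7 leukocyte genes were lower on all arrays, with medians of −0.49, −0.22 and −0.68. They leave out CD4, whose probes were not well above background on every array. The 5 dermal fibroblast genes with a value on every array, so without VIM, had medians of −0.73, −0.43 and 0.16. Cell cycle genes were at −0.29, 0.025 and 0.93 over 4 genes. Hair, cell cycle and fibroblast medians were thus all highest on replicate 3, as were SHH, PTCH1, SFRP2, SFRP4, FZD2, FGF18, FGF2 and HGF. Fibroblast and cell cycle medians were lowest on replicate 1, as were SFRP4, FGF1, FGF7, FGF10, HGF, EGFR, FGFR1, FZD2 and PTCH1. Their part in these results was not tested. Endothelial genes (median −0.33 over 3), adipose and sebaceous genes (−0.35 over 6), melanocyte genes (−0.20 over 2), 1 muscle gene (0.040) and keratinocyte genes (0.65 over 3, without KRT5) were also measured. The adipose and sebaceous value was −0.20 under median centring. The melanocyte value was −0.082 without replicate 1, −0.083 without replicate 2, −0.43 without replicate 3 and −0.40 under median centring, the muscle value −0.27 under median centring and from −0.11 to 0.21 without 1 array, and the keratinocyte value 0.36 without replicate 1.

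Several values depended on the normalization. With median centring in place of loess the means of FGFR1, FGFR3, SHH and PTCH1 moved down and those of FGF7 and FZD2 moved up, while ratios from the authors' processed signals lay nearer to those after loess. Under median centring 5 of the 32 members had an adjusted p under 0.05 in limma, against 12.6% of all tested probes. They were FGF18, FGFBP1-like, HGF and both FZD2 probes, with means of 0.59, 0.65, −0.63, 0.58 and 0.64.

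**Figure D4:**
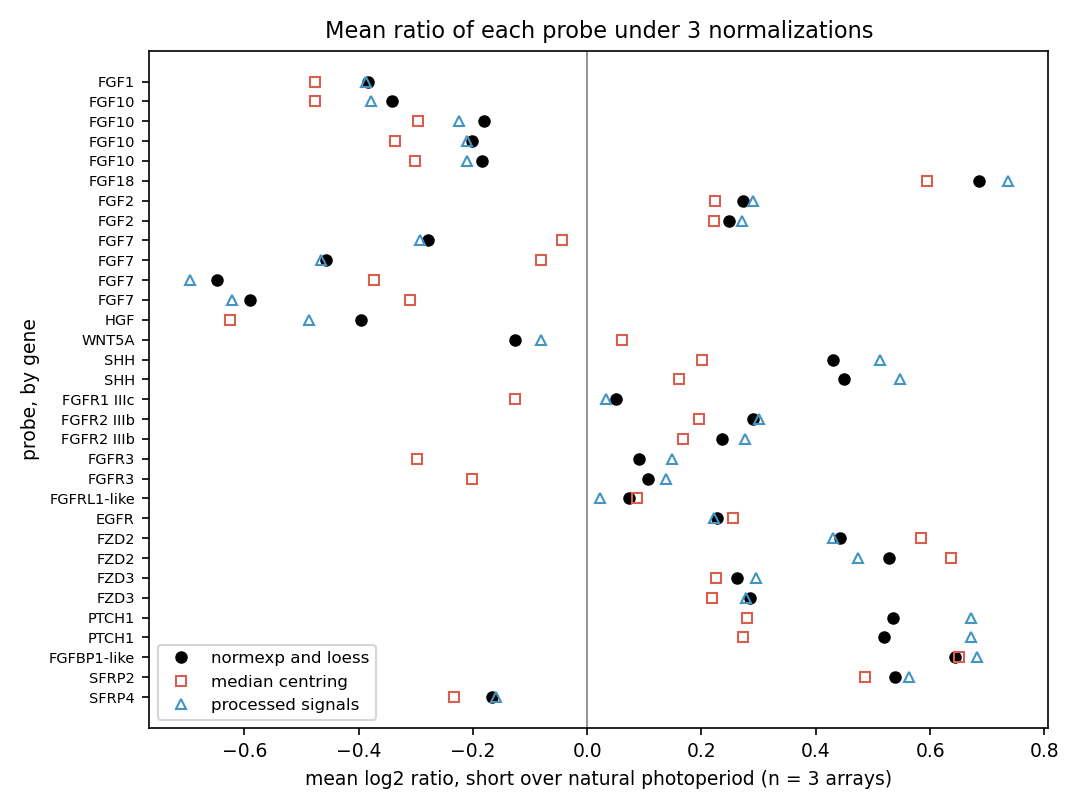
Mean log2 ratio over the 3 arrays (horizontal axis) of each of the 32 probes after normexp and loess, after median centring, and from the Feature Extraction processed signals. FGF18, FGF2, FGFBP1-like, FZD2, SHH and PTCH1 stay above 0 and FGF7 and HGF below 0 in all 3, while FGFR1, FGFR3 and WNT5A change sign under median centring.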

How the data were processed

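Agilent Feature Extraction was run by the authors, and the deposited scanner files hold each spot's mean intensity and local background intensity in both dyes before normalization, together with processed signals and a log10 ratio of these. The authors' deposited value table holds log2 ratios of Cy5 over Cy3. Here normexp (offset 50) and loess were applied in R 4.3.3 with limma 3.58.1, outlier-flagged spots were dropped (38, 65 and 91 per array, 0 among the members), spots of a probe were averaged, and probes on at least 2 arrays were tested with lmFit and eBayes against 0, with Benjamini-Hochberg adjustment over 14977 probes. Each array holds 1 goat of each group, so the ratio is a difference within an array. The goats are separate animals. Signals of single goats came from Aquantile normalization between arrays. The test was also tried on simulated data, with changes larger than the mean of any member, so this trial does not bear on changes of the members' size. The members, gene lists and tests were chosen with earlier results of these data known. All ligands, receptors and binding proteins of the rule are named, and from each further pathway list up to 4 genes of one direction and the receptors. Genes are given by symbols that for some differ from the array's gene name, among them SFRP2, SFRP4, FGFR1 IIIc, FGFBP1-like, FGFRL1-like, KRT34, KRT85 and MET. Of the 19 member symbols, 18 are in the goat annotation table. Alternatives covered background correction, normalization, filters, test and each array. Figures were drawn with matplotlib 3.10.9.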

Additional observations from a re-analysis of the deposited data

How the results depend on the processing

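Of the 32 probes, 20 kept their sign under all 13 alternatives and 12 did not. Median centring turned FGFR1 (−0.13), both FGFR3 probes (−0.30 and −0.20) and WNT5A (0.061). Leaving out replicate 1 turned 3 FGF10 probes, both FGFR2 IIIb probes, FGFRL1-like and SFRP4, leaving out replicate 2 turned WNT5A, and leaving out replicate 3 turned SFRP2. Without 1 array the means of the FGF10 probes ranged from −0.42 to 0.073, −0.40 to 0.022 and −0.39 to 0.028, those of FGFR2 IIIb from −0.14 to 0.56 and −0.23 to 0.51, and those of FGFRL1-like from −0.022 to 0.13, SFRP4 from −1.25 to 0.91, WNT5A from −0.36 to 0.027 and SFRP2 from −0.073 to 1.06. The cause was not tested. The members with an adjusted p under 0.05 in limma numbered 5 under median centring and 0 under every other alternative. Leaving out 1 array gave 0 to 1 members at least 2-fold higher (SFRP2 without replicate 2, at 1.06) and 0 to 1 lower (SFRP4 without replicate 3, at −1.25). Over all tested probes, 1 had an adjusted p under 0.05, against 1885 under median centring, 18 with the processed signals, 14 with the value table, 161 with the separate channels and a replicate block, 0 with the channels unpaired and 0 in each fit without 1 array. The replicate block changed no call among the members. The 64 probes at least 2-fold higher became 115 without the normexp offset, 293 under median centring, 174 with the processed signals, 358 with the value table and 80 to 104 without 1 array, and the 64 lower became 132 with the processed signals, 116 with the value table and 79 to 186 without 1 array. The list medians that moved by more than the SD of their array medians were those of further Wnt genes (0.27 under median centring), further hedgehog genes (0.16 under median centring, −0.050 to 0.085 without 1 array) and endothelial genes (−0.18 under median centring, −0.34 with the processed signals and with the value table, −0.44 to −0.27 without 1 array). An FGFR3 probe (normalized log2 signal 7.44 in the short photoperiod goat of replicate 3) lay closest among the members to the lowest signal called well above background, 7.23 there, and precision is that of 3 arrays whose dyes were not swapped.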
